A study of Mus musculus with 9 samples.

Results

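Steroid receptors and steroid-converting enzymes were followed in 3 pools of mouse motor neurons. The set had 8 genes, chosen by name with earlier results of these data known. Every probe set that the platform annotation gives to one of them alone was taken. Of the 8 genes, 6 were matched by 15 probe sets, among 18193 genes and 45037 probe sets in all. Nr3c1 had 6 probe sets, Esr1 and Pgr had 3 each, and Esr2, Nr3c2 and Hsd17b2 had 1 each. The other 2, the aromatase gene Cyp19a1 and the reductase gene Srd5a1, were not matched to a probe set and are not analysed here.

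All samples came from wild-type male C57BL/6J mice at postnatal day 7, with no treatment. Motor neurons were cut by laser from 12 µm cresyl violet sections, about 200 per pool from each of 3 animals, and their RNA was amplified and measured on Affymetrix Mouse Genome 430 2.0 arrays. One pool was taken from the spinal cord at L5, another (OMN) from the oculomotor nucleus in the midbrain, and the last (DL) from the dorsolateral nucleus at L6, with 3 arrays each. The series was made to compare pools that differ in vulnerability in amyotrophic lateral sclerosis. Neurons were taken by position and stain, with no label of their target muscle in the protocol, so other cells in the cut tissue can contribute RNA.

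Steroid hormones act through nuclear receptors that bind the hormone and then bind DNA. Esr1 and Esr2 encode the estrogen receptors, Pgr the progesterone receptor, Nr3c1 the glucocorticoid receptor and Nr3c2 the mineralocorticoid receptor. Enzymes in the target cell set how much active hormone the receptor sees: Hsd17b2 oxidises estradiol and testosterone to their weaker ketone forms, Cyp19a1 makes estrogens from androgens, and Srd5a1 makes dihydrotestosterone. The dorsolateral nucleus of rodents innervates pelvic muscles, and its motor neurons are known for their dependence on androgen.

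Values are scaled intensities on a linear scale, and the noise level is 18.3, the highest value of 27 probe sets for bacterial transcripts on any array. Differences are on the scale of log2(intensity + 16), which understates the change of dim genes, and calls are at an adjusted p under 0.05 over all genes in limma, fitted on all 9 arrays. In a bulk sample of this kind, fewer cells of a type and less RNA per cell cannot be told apart. The share of genes above noise was 67.0% to 71.5% per array. Of 10 measured motor neuron markers 8 exceeded it on all 9 arrays. The vesicular acetylcholine transporter Slc18a3 lay between 773.8 and 3574.4, but the 1 probe set of Chat, the defining cholinergic enzyme, lay between 1.2 and 24.5, at or near the noise level in all pools. The DL arrays were the most uneven: over 7120 bright genes the log2 SD had a median of 0.294 in DL, 0.204 in L5 and 0.171 in OMN, while the fit uses 1 shared spread. DL array 3 stood apart for several steroid receptor probe sets. It was more than 2-fold above both other DL arrays for 4 of the 12 probe sets of the set with a mean above noise, against 4.49% of the 10693 genes with a mean over 50, and these 4 belong to Nr3c1, Nr3c2, Pgr and Esr1. The shares are not like for like. Each of the 10693 genes is counted by its brightest probe set, while the 12 include dimmer ones, such as that of Esr1 (mean 24.16). The Gapdh control ratio of DL array 3, the 3' over the 5' probe set, was 3.75, and those of DL arrays 1 and 2 were 3.27 and 2.44, against 2.33 to 2.67 in L5 and OMN. The part of RNA quality in these values was not tested.

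One gene of the set, Hsd17b2, differed between the pools. It was bright on every L5 array and low or under the noise level in OMN and DL. Of the 6 measured genes, 1 was called between L5 and OMN, with L5 higher, where 2.15% of all genes were called (0.951% higher and 1.20% lower in L5). Likewise 1 was called between L5 and DL, with L5 higher, where 2.52% of all genes were called (1.25% higher and 1.27% lower in L5). Between DL and OMN limma called 0 of the 6, with 1 at an unadjusted p under 0.05, where 3.00% of all genes were called (1.36% higher and 1.64% lower in DL). The genes were chosen with earlier results of these data known, so these counts are no independent test. After median centring, the part of the called genes with higher values in the first pool went from 49.7% to 39.4% for L5 against DL and from 45.3% to 60.6% for DL against OMN. An unadjusted p under 0.05 was reached by 16% of all genes for L5 against OMN, 18.9% for L5 against DL and 16.1% for DL against OMN, and the counts of that kind given for gene lists are to be read against these shares. The median log2 difference of the 6 genes was 0.42 for L5 minus OMN, 0.60 for L5 minus DL and -0.05 for DL minus OMN, beside 0.01, 0.06 and -0.04 over all genes.

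Hsd17b2 gave intensities of 596.6, 721.2 and 800.4 on L5 arrays 1, 2 and 3. On the OMN arrays it gave 4.6, 10.1 and 76.7, and on the DL arrays 0.7, 56 and 25.3. All 3 L5 arrays lay above all 6 others; of all genes, 27.4% had no overlap between L5 and OMN and 23.4% none between L5 and DL, in either direction. Only OMN array 3 and DL arrays 2 and 3 exceeded the noise level outside L5. The mean was 706 ± 103 (SD, n = 3) in L5, 30.5 ± 40.1 in OMN and 27.3 ± 27.7 in DL, so that L5 was 23.2-fold above OMN and 25.8-fold above DL by means. Both folds are set against values mostly near background and have little precision: with one array of the low pool left out they ran from 16.3 to 96.1 for OMN (the highest without OMN array 3) and from 17.4 to 54.3 for DL (the highest without DL array 2). The log2 difference was 4.28 ± 0.50 (SE) for L5 minus OMN (limma adjusted p = 0.00878) and 4.29 ± 0.50 for L5 minus DL (limma adjusted p = 0.0105). OMN and DL were not distinguished, with a 95% interval of the log2 difference from -1.17 to 1.17.

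Hsd17b2 was higher in L5 in 21 of 21 alternative settings against each pool, with log2 differences from 3.10 to 5.38 against OMN and from 3.09 to 5.68 against DL, and was called in 15 of 21 against each. The call against OMN was lost without any one of the L5 arrays or without OMN array 1 or 2 (limma adjusted p from 0.0506 to 0.0635), and with a pseudocount of 1 (adjusted p = 0.118). The call against DL was lost without any one of the L5 arrays (adjusted p from 0.0505 to 0.0689), without DL arrays 1 and 3, a fit that leaves DL with 1 array assumed to vary like the other pools (adjusted p = 0.108), with the Gapdh ratio as a covariate (adjusted p = 0.0639) and with a pseudocount of 1 (adjusted p = 0.1).

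**Figure D1:**
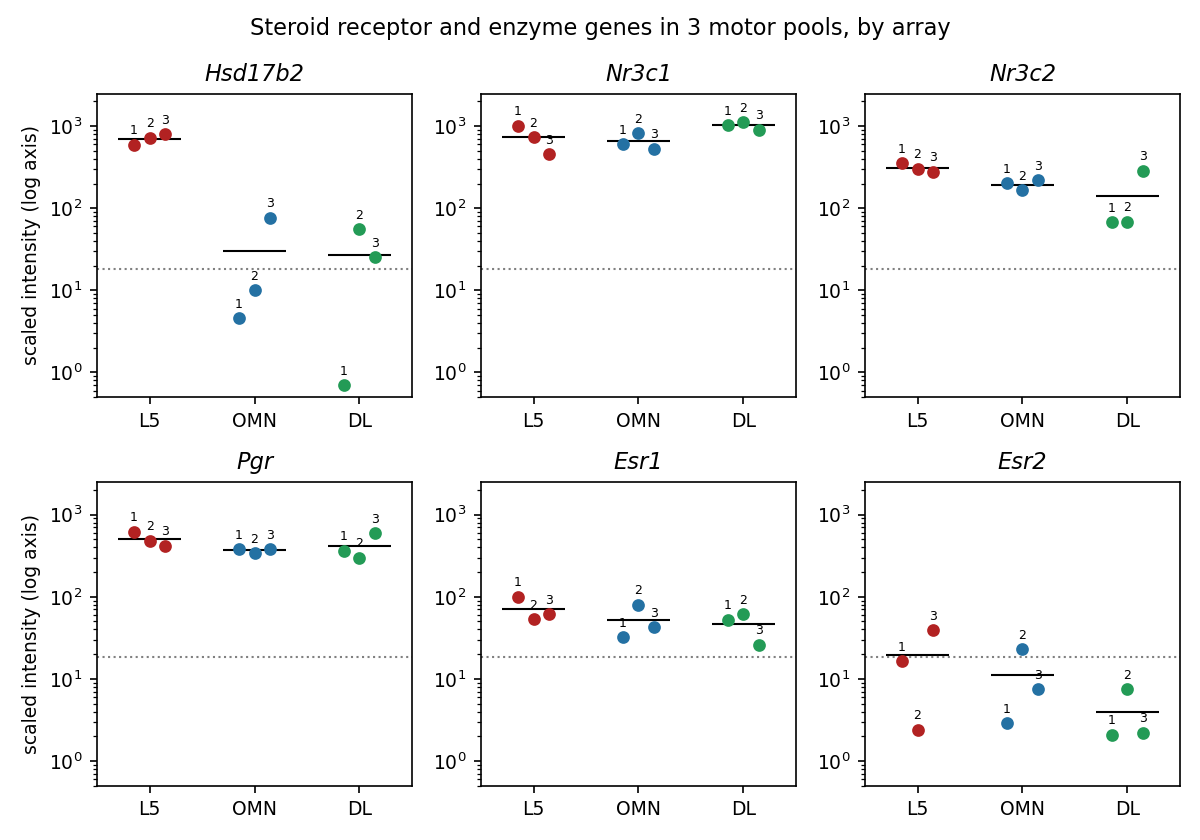
Scaled intensity (log axis) of the brightest probe set of the 6 measured genes on each array, with arrays numbered by replicate, the pool mean as a bar and the noise level of 18.3 as a dotted line. Hsd17b2 sits between 596.6 and 800.4 in L5 and at 76.7 or less elsewhere, while the receptor genes overlap between at least some pools.

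Marker lists of the cell types that the cut tissue could hold are given beside Hsd17b2. The summed intensity of 10 motor neuron markers ran from 42940 to 45230 on the L5 arrays. It ran from 31620 to 33380 on the OMN arrays and from 31350 to 36980 on the DL arrays. Nefm, Nefh and Prph were the brightest of these markers, and each had its highest mean in L5. Isl1 went the other way, with means of 598 in L5, 2129 in OMN and 2717 in DL. Limma called 2 of the 10 above OMN and 1 below it in L5, where 0.951% of all genes were called higher and 1.20% lower. Against DL it called 0 above and 1 below in L5, where 1.25% of all genes were called higher and 1.27% lower. These shares also stand beside the other marker calls given here. For 14 astrocyte markers the sums were 28800 to 31920 for L5, 25290 to 25980 for OMN and 24090 to 26430 for DL. One of the 14, Gfap, was called higher in L5 than in OMN and lower in L5 than in DL. The sums of 16 endothelial and meningeal markers were lowest in L5, at 4457 to 5555, with 5956 to 6166 for OMN and 6227 to 6445 for DL. One of these 16, Dcn, a matrix protein of fibroblasts, was at least 4.69-fold higher in L5 than in OMN (limma adjusted p = 0.0364). Against the order of the sums, Dcn, Col1a1, Col1a2 and Lum all had their highest mean in L5. In L5, OMN and DL the means were 86.7, 6.17 and 39.0 for Dcn and 472, 120 and 321 for Col1a2. For Col1a1 they were 72.5, 48.2 and 51.9, and for Lum 35.6, 15 and 9. All of the astrocyte, endothelial and meningeal markers exceeded the noise level on some array. For 12 microglia markers the sums overlapped between the pools, at 1029 to 1198 for L5, 939.7 to 1325 for OMN and 618.7 to 1252 for DL. For 4 excitatory interneuron markers they were 415.4 to 519.1 for L5, 990.9 to 1253 for OMN and 155.5 to 303.9 for DL. These sums were mostly Slc17a6, with means of 456.5 in L5, 1124 in OMN and 201.8 in DL. Of the 4 markers 1 exceeded the noise level on all 9 arrays. Of 6 Schwann cell and sensory ganglion markers, Pmp22, a myelin protein, was called higher in L5 than in both other pools, with a mean of 2060 ± 176 in L5, 134.6 ± 37.1 in OMN and 874.7 ± 183 in DL. The sums of the 6 were 1964 to 2304 for L5, 214.7 to 328.9 for OMN and 2088 to 3013 for DL. The part of any of these cells in the Hsd17b2 difference was not tested.

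Among 9115 other genes with a mean over 100, those whose log2 values over the 9 arrays were most like Hsd17b2 by Pearson correlation were Cct2 (r = 0.985), Tafa5 (r = 0.979) and Ccn2 (r = 0.972). This is a description over 9 arrays that share 3 pools. Cct2, a chaperonin subunit, had a mean of 7957 in L5, 5438 in OMN and 5756 in DL, a far smaller step than that of Hsd17b2. Ccn2, a secreted matrix protein, stood at 241 ± 21.7 in L5, 65.8 ± 40.4 in OMN and 47.4 ± 28.5 in DL. It was called higher in L5 than in DL (limma adjusted p = 0.0306) and not against OMN (adjusted p = 0.0602).

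Nr3c2, the mineralocorticoid receptor, had the second largest difference of the set and missed the threshold. It gave 354.5, 304.6 and 277.7 on the L5 arrays, 200.3, 164.7 and 218 on the OMN arrays, and 67.7, 68.9 and 285.4 on the DL arrays. DL arrays 1 and 2 were the lowest of the 9, while DL array 3 reached the L5 range. All L5 arrays were above all OMN arrays, as 27.4% of all genes were separate in one direction or the other in that comparison. The log2 difference was 1.34 ± 0.42 for L5 minus DL (95% interval from 0.37 to 2.32, limma adjusted p = 0.147), 0.64 ± 0.42 for L5 minus OMN (adjusted p = 0.508) and -0.70 ± 0.42 for DL minus OMN (adjusted p = 0.488). Without DL array 3 the difference from L5 was 1.95 and was called (limma adjusted p = 0.0262). It was not called with any other single array left out (adjusted p from 0.154 to 0.371). The order of the means was L5 at 312 ± 39.0, OMN at 194 ± 27.2 and DL at 141 ± 125, and no step of that order passed the test.

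Nr3c1, the glucocorticoid receptor, was above noise on all 9 arrays, and its brightest probe set had its highest mean in DL, with no call. That probe set, 1460303_at, gave 1008.7, 739.4 and 456.6 in L5, 606.9, 817.6 and 534 in OMN, and 1027.8, 1125.6 and 905.3 in DL. The DL arrays all lay above the OMN arrays, as 21.1% of all genes were separate in that comparison, while L5 overlapped both. The log2 difference was 0.65 ± 0.25 for DL minus OMN (unadjusted p = 0.0323, limma adjusted p = 0.254) and -0.53 ± 0.25 for L5 minus DL (adjusted p = 0.303). For L5 minus OMN it was 0.12 ± 0.25 (95% interval from -0.46 to 0.69). None of these was called in any of the 21 alternatives.

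The 6 probe sets of Nr3c1 did not show one pattern. In the fit of all probe sets 0 of 6 were called by limma in any comparison, where 1.03% (L5 against OMN), 1.37% (L5 against DL) and 1.92% (DL against OMN) of all probe sets were called, and 2 of 6 were at an unadjusted p under 0.05, both for DL minus OMN. Probe sets 1457635_s_at and 1421866_at also had their highest mean in DL, at 487 ± 69.7 and 138 ± 33.2, against 335 ± 30.5 and 88.2 ± 12.2 in OMN. Probe set 1421867_at had its highest mean in L5, at 417 ± 95.9, with 277 ± 81.0 in OMN and 299 ± 71.6 in DL. Probe set 1453860_s_at gave 38.5, 36 and 176.5 in DL, so that DL array 3 alone lay above the L5 range of 82.5 to 100.6. The last, 1431378_at, stayed between 8.5 and 25.2, at or near the noise level.

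The summed oligodendrocyte markers were also highest in DL, and their values are given beside Nr3c1. The sum of 13 measured markers ran from 24050 to 26390 for DL, from 17990 to 18960 for L5 and from 14820 to 16370 for OMN, with 3 of 13 called higher in DL than in OMN and the same number higher in DL than in L5. Over all genes 1.36% were called higher in DL than in OMN and 1.27% higher in DL than in L5. All 13 exceeded the noise level on some array, and 11 on all 9. Olig1 and Olig2 went the other way, with their lowest means in DL. Olig1 had means of 1195 in DL, 1537 in L5 and 1803 in OMN, and Olig2 of 97.9, 191 and 238. Inhibitory interneuron markers, 6 measured, summed to 5036 to 5922 for DL, 1642 to 2284 for L5 and 1928 to 2724 for OMN. The part of these cells in the Nr3c1 values was not tested.

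**Figure D2:**
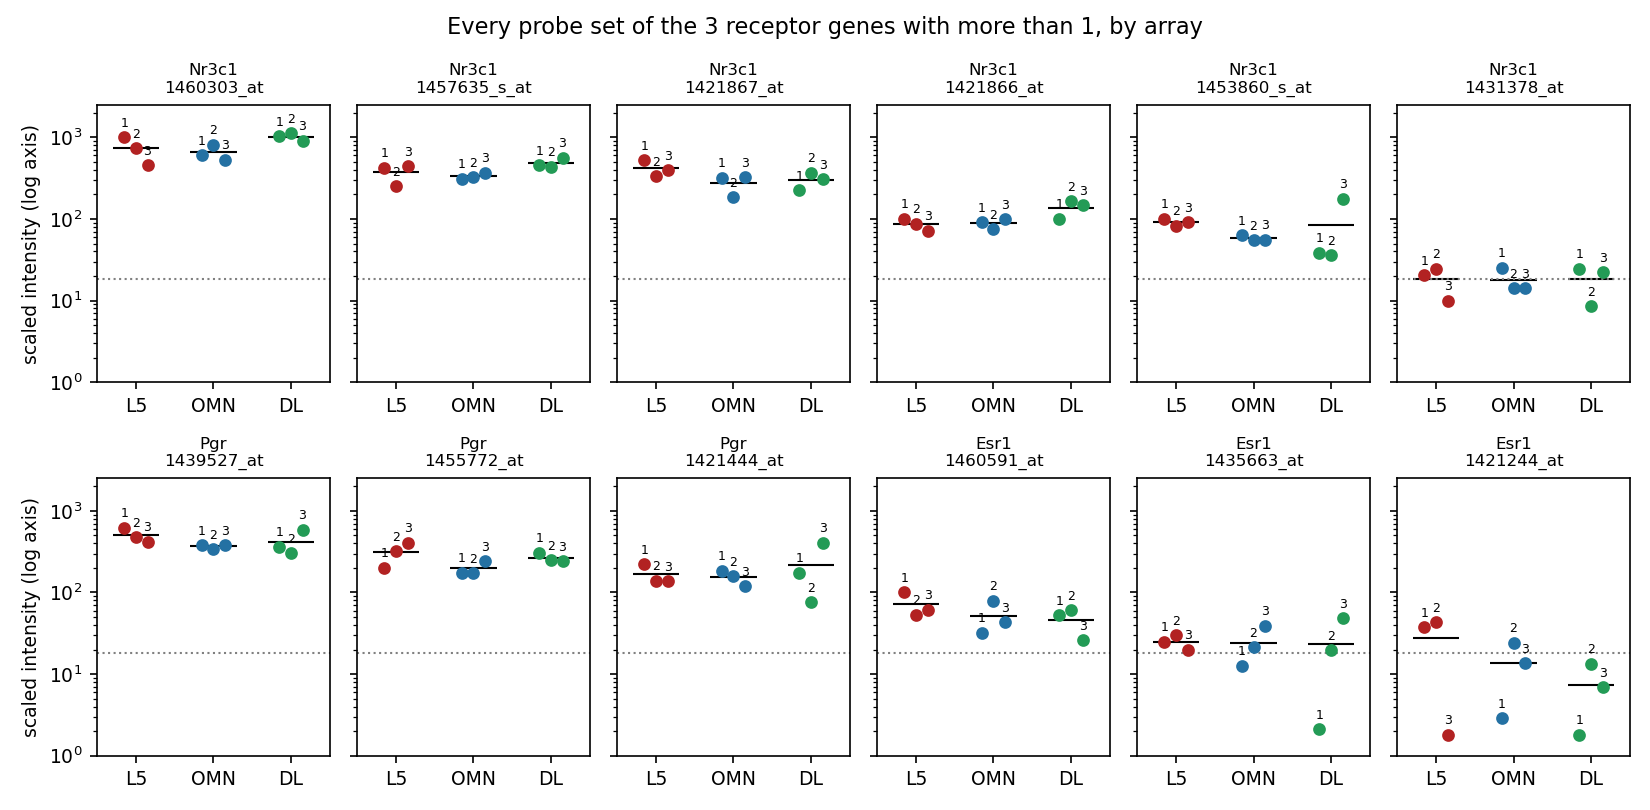
Scaled intensity (log axis) of all 12 probe sets of Nr3c1, Pgr and Esr1 on each array, with arrays numbered by replicate, pool means as bars and the noise level as a dotted line. DL array 3 is above its pool mates in 1453860_s_at (176.5), 1421444_at (405.2) and 1435663_at (48.1). Pool means of 1460303_at, 1457635_s_at and 1421866_at are highest in DL, and that of 1421867_at is highest in L5.

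Pgr, the progesterone receptor, was clearly above noise on all 9 arrays with all 3 probe sets and was not shown to differ between pools. The brightest, 1439527_at, gave 623.4, 479.4 and 418.4 in L5, 381.7, 338.2 and 378.4 in OMN, and 365.4, 300.5 and 589.8 in DL. L5 arrays lay above all OMN arrays, as 27.4% of all genes were separate in one direction or the other in that comparison, and DL spanned both. The log2 difference was 0.44 ± 0.27 for L5 minus OMN (95% interval from -0.19 to 1.07, limma adjusted p = 0.486), 0.30 ± 0.27 for L5 minus DL (interval from -0.33 to 0.93) and 0.13 ± 0.27 for DL minus OMN (interval from -0.50 to 0.76). The latter changed sign without DL array 3, to -0.19. Probe set 1455772_at was at 311 ± 103 in L5, 197 ± 39.2 in OMN and 265 ± 36.7 in DL. Probe set 1421444_at gave 175.5, 75.5 and 405.2 in DL, where array 3 again was the highest, and 120 to 223.4 in the other pools.

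Transcripts of the estrogen receptors were dim. The brightest Esr1 probe set, 1460591_at, exceeded the noise level on all 9 arrays, with 100.7, 53.2 and 61.7 in L5, 32.2, 79.6 and 42.9 in OMN, and 52.8, 61.1 and 26 in DL. The pools overlapped, with log2 differences of 0.40 ± 0.33 for L5 minus OMN (95% interval from -0.38 to 1.19), 0.50 ± 0.33 for L5 minus DL (interval from -0.29 to 1.28) and -0.09 ± 0.33 for DL minus OMN (interval from -0.88 to 0.69). The sign of the last one turned under both other scalings, to 0.12 after quantile normalization and 0.05 with arrays centred on their medians, and the median over all genes moved too, from -0.04 to 0.03 and 0.11. The other Esr1 probe sets, 1435663_at and 1421244_at, exceeded noise on 7 and 3 arrays and reached at most 48.1. Esr2 exceeded noise on 2 of 9 arrays, L5 array 3 at 39.2 and OMN array 2 at 22.9. Its 7 other values lay between 2.1 and 16.4, so no difference between pools could be measured for it.

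**Figure D3:**
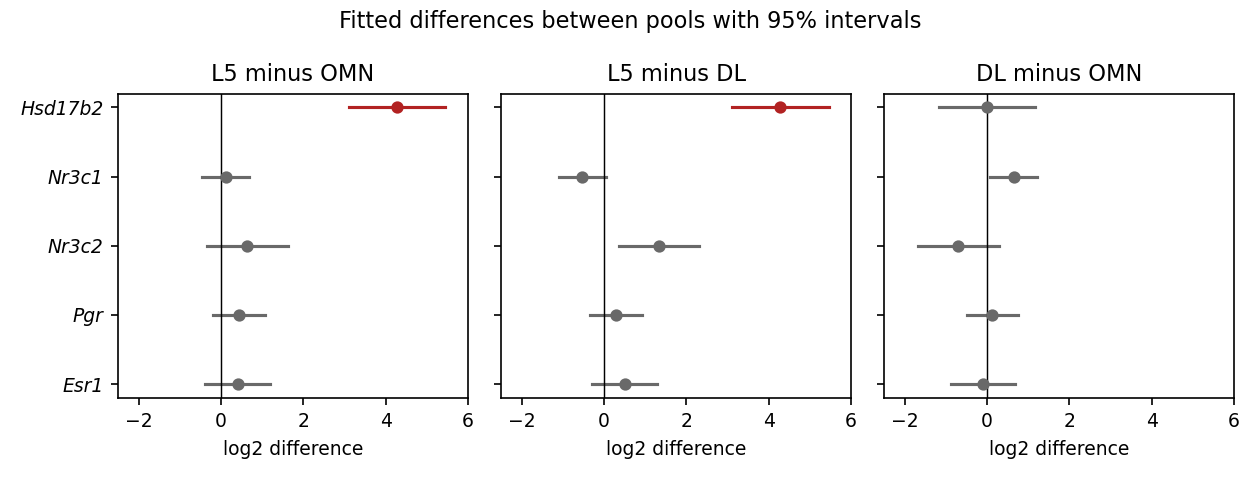
Fitted log2 differences between pools (points) with 95% intervals (lines) for 5 genes (Esr2, mostly below noise, is left out), red where the adjusted p was under 0.05. Hsd17b2 stands near 4.28 and 4.29 in the comparisons with L5 and at 0 between DL and OMN, and the intervals of the receptors lie within -1.67 and 2.32.

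Further genes of steroid turnover were read from a list of 54, of which 45 were measured and 36 exceeded noise on some array. In this list limma called 0 genes between L5 and OMN, beside 2.15% of all genes, with 9 at an unadjusted p under 0.05. Between L5 and DL it called 1, higher in L5, beside 2.52% of all genes, with 6 at an unadjusted p under 0.05. Between DL and OMN it called 0, beside 3.00% of all genes, with 6 at an unadjusted p under 0.05. The list's median log2 difference was 0.08, 0.16 and -0.06 for L5 minus OMN, L5 minus DL and DL minus OMN. The called gene was Hsd17b14, a dehydrogenase of the same family as Hsd17b2. It gave 21.5, 23.8 and 57.8 in L5, 15.1, 6.4 and 29 in OMN and 1.1, 2.2 and 13.4 in DL, and was at least 1.69-fold higher in L5 than in DL (limma adjusted p = 0.0307). Its call rests on dim values with 1 of its 2 probe sets and on the replicate block (without the block adjusted p = 0.101), and did not survive the removal of any single array (adjusted p from 0.05 to 0.145).

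The Hsd17b family had 11 measured genes. Of the 10 besides Hsd17b2, limma called 0 between L5 and OMN (5 at an unadjusted p under 0.05), 1 between L5 and DL (2 at an unadjusted p under 0.05) and 0 between DL and OMN (2 at an unadjusted p under 0.05). The shares of all genes called were 2.15%, 2.52% and 3.00% in that order. Of the 5 for L5 minus OMN, Hsd17b1, Hsd17b7, Hsd17b10 and Hsd17b14 had positive differences (0.84, 0.89, 0.67 and 0.60) and Hsd17b12 a negative one (-0.51). Over these 10 genes, log2 differences ran from -0.51 to 0.89 for L5 minus OMN and from -0.35 to 1.2 for L5 minus DL. Hsd17b4, Hsd17b7, Hsd17b10, Hsd17b11 and Hsd17b12 exceeded noise on all arrays. Hsd17b7 gave 1082 ± 93.6 in L5, 580 ± 83.0 in OMN and 1087 ± 279 in DL, with no call (limma adjusted p = 0.138 for L5 minus OMN and 0.130 for DL minus OMN). Hsd17b1, which reduces estrone to estradiol, the step opposite to that of Hsd17b2, was at 31.4 ± 12.8 in L5, 10.2 ± 5.09 in OMN and 13.0 ± 8.36 in DL (adjusted p = 0.143 and 0.163 for L5 minus OMN and L5 minus DL). Hsd17b3, which makes testosterone, exceeded noise on 1 array of each pool.

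Receptors of other kinds were read from a list of 16, of which 15 were measured; the androgen receptor is not analysed here. Of the 15, limma called 0 between L5 and OMN, beside 2.15% of all genes, with 4 at an unadjusted p under 0.05. Between L5 and DL it called 1, higher in L5, beside 2.52% of all genes, with 7 at an unadjusted p under 0.05. Between DL and OMN it called 2, lower in DL, beside 3.00% of all genes, with 5 at an unadjusted p under 0.05. The called genes were Esrrb and Esrrg, orphan receptors that resemble the estrogen receptors and bind no known steroid. Esrrb gave 410.4, 492.4 and 422.3 in OMN, 204.7, 143.1 and 175.5 in L5, and 150.2, 33.2 and 40.7 in DL, with a log2 difference of -2.56 ± 0.37 for DL minus OMN (limma adjusted p = 0.0149). That call was lost without OMN array 2 or 3 or without DL array 2 or 3 (adjusted p up to 0.0884). Of its 3 probe sets 1 was called for DL minus OMN. The others, 1422986_at (-1.47 ± 0.43) and 1441921_x_at (-0.58 ± 0.37), had the same sign and were not called. Esrrg gave 719.5, 902.1 and 464.1 in DL, below all L5 values (1571.7 to 1931.2) and all OMN arrays (mean 2562 ± 246). Of all genes, 23.4% had no overlap between L5 and DL and 21.1% none between DL and OMN, in either direction. The Esrrg call against L5 (limma adjusted p = 0.0475) was lost with 8 of the 9 arrays left out in turn (up to 0.176), and that against OMN (limma adjusted p = 0.0123) without any one OMN array or DL array 1 (up to 0.0753). In the fit of all probe sets this one, 1455267_at, was called against OMN and not against L5 (limma adjusted p = 0.0625). Probe set 1421747_at was called in both, with 1.95 ± 0.27 for L5 minus DL and -2.25 ± 0.27 for DL minus OMN. Dim 1457896_at went the other way, with -0.84 ± 0.44 and 0.91 ± 0.44, and was not called.

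The 8 measured membrane receptors of steroids made no call in any comparison by limma. For L5 minus OMN, L5 minus DL and DL minus OMN, 2.15%, 2.52% and 3.00% of all genes were called. In that order 2, 4 and 2 of the 8 were at an unadjusted p under 0.05, beside 16%, 18.9% and 16.1% of all genes. The nearest to the threshold, named after its values were seen, was Pgrmc1, a membrane protein associated with progesterone. It gave 453.5, 398.7 and 540.2 in L5, 800, 984.4 and 850.3 in OMN and 1080.5, 869.1 and 930.6 in DL. All L5 arrays were the lowest. Of all genes, 27.4% had no overlap between L5 and OMN and 23.4% none between L5 and DL, in either direction. The log2 difference of Pgrmc1 was -1.03 ± 0.21 for L5 minus DL (limma adjusted p = 0.0546) and -0.90 ± 0.21 for L5 minus OMN (adjusted p = 0.0907).

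Nuclear receptors wait on chaperones and act through cofactors, and of 32 such genes 27 were measured, all above noise on all 9 arrays. One of them, Ncoa2, a coactivator that binds hormone-loaded receptors, was lower in L5 than in both other pools, and 0 were higher. Over all genes 2.15% were called between L5 and OMN and 2.52% between L5 and DL. Between DL and OMN limma called 0 of the 27, with 0 at an unadjusted p under 0.05. Ncoa2 gave 311.1, 280.7 and 368.4 in L5, 699.1, 894.5 and 685.5 in OMN, and 761, 975 and 1085.2 in DL. L5 overlapped neither other pool. Of all genes, 27.4% had no overlap between L5 and OMN and 23.4% none between L5 and DL, in either direction. The log2 differences of Ncoa2 were -1.20 ± 0.22 for L5 minus OMN (limma adjusted p = 0.0398) and -1.50 ± 0.22 for L5 minus DL (limma adjusted p = 0.0189). The call against OMN did not survive the removal of any single array (adjusted p from 0.0579 to 0.178), and that against DL without any one L5 or DL array (up to 0.105). The calls rest on 1 of 4 probe sets. In the same order, 1435233_at had -0.38 ± 0.29 and -0.36 ± 0.29 and 1450458_at had -0.70 ± 0.30 and -0.33 ± 0.30. The fourth, 1446827_at, went the other way, with 0.38 ± 0.31 and 0.47 ± 0.31. With the mean of all 4 the differences were -0.48 and -0.43 (adjusted p = 0.262 and 0.272).

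Genes known to rise with glucocorticoid, 24 of 24 measured, made no call in any comparison by limma. For L5 minus OMN, L5 minus DL and DL minus OMN, 2.15%, 2.52% and 3.00% of all genes were called. In that order 9, 7 and 3 of the 24 were at an unadjusted p under 0.05, against 16%, 18.9% and 16.1% of all genes. The median log2 differences of the 24 were 0.16, 0.16 and -0.08. Fkbp5, a chaperone that is a standard readout of the glucocorticoid receptor, was at 173 ± 32.4 in L5, 155 ± 3.16 in OMN and 159 ± 68.7 in DL, and Tsc22d3 at 1573 ± 124, 1332 ± 43.9 and 1376 ± 75. Both are named as standard readouts and not for their values.

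Of 20 genes known to rise with estrogen, a list that holds Pgr, 19 were measured. Limma called 2 between L5 and OMN (2.15% of all genes), both lower in L5, and 1 between L5 and DL (2.52% of all genes), also lower in L5. Between DL and OMN it called 4 (3.00% of all genes), of which 2 were higher in DL. The median log2 differences were -0.02, -0.45 and -0.02 for L5 minus OMN, L5 minus DL and DL minus OMN. Gal, a neuropeptide gene, was higher in DL, with 159.7, 186 and 175 against 45.1, 16.9 and 25.3 in L5 and 29.6, 26.8 and 39.1 in OMN (limma adjusted p = 0.0107 and 0.00892). The call was lost against L5 without L5 array 2 or 3 (up to 0.0735) and against OMN without OMN array 1 or 2 (up to 0.0601). Of the 4 measured markers of sensory ganglion neurons, Scn11a and Pirt were called higher in DL than in both other pools, and Scn10a and Avil were not. Over all genes 1.27% were called higher in DL than in L5 and 1.36% higher in DL than in OMN. Scn11a, a sodium channel of nociceptors, gave 609.4, 714 and 503.3 in DL, against 14.4 to 26.4 in L5 and 10.6 to 49.3 in OMN. Scn10a, another such channel, gave 6.7, 4.9 and 17.7 in DL, below noise on all 3, and Avil gave 108.1, 5.7 and 29.8. The part of such neurons in the Gal values was not tested. Igf1, a growth factor, was highest in OMN, with 1594.6, 981 and 1199.1 against 276.4, 316.1 and 184.1 in L5 (limma adjusted p = 0.0124) and 341.5, 448.9 and 452.9 in DL (adjusted p = 0.0358). The Igf1 call between DL and OMN did not survive the removal of any single array (adjusted p up to 0.156), and that between L5 and OMN without any one L5 array or OMN array 1 or 3 (up to 0.0831). Stc2, a secreted glycoprotein, gave 109.7, 129.7 and 231 in OMN and 2.7, 1.4 and 0.6 in DL, at least 8.12-fold lower in DL (limma adjusted p = 0.0023), and kept that call in all 21 alternatives. Its call between L5 and OMN (limma adjusted p = 0.0187) was lost without any one L5 or OMN array (up to 0.111). Of the 3 Stc2 probe sets 1 was called in each of these comparisons, and 0 had the opposite sign. Bcl2, an inhibitor of cell death, was 2.06-fold higher in DL than in OMN by means (adjusted p = 0.0358), a call lost on leaving out any one array (up to 0.166). Of its 5 probe sets 1 was called, and with the mean of all 5 the log2 difference went from 1.04 to 0.35 (adjusted p = 0.342).

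**Figure D4:**
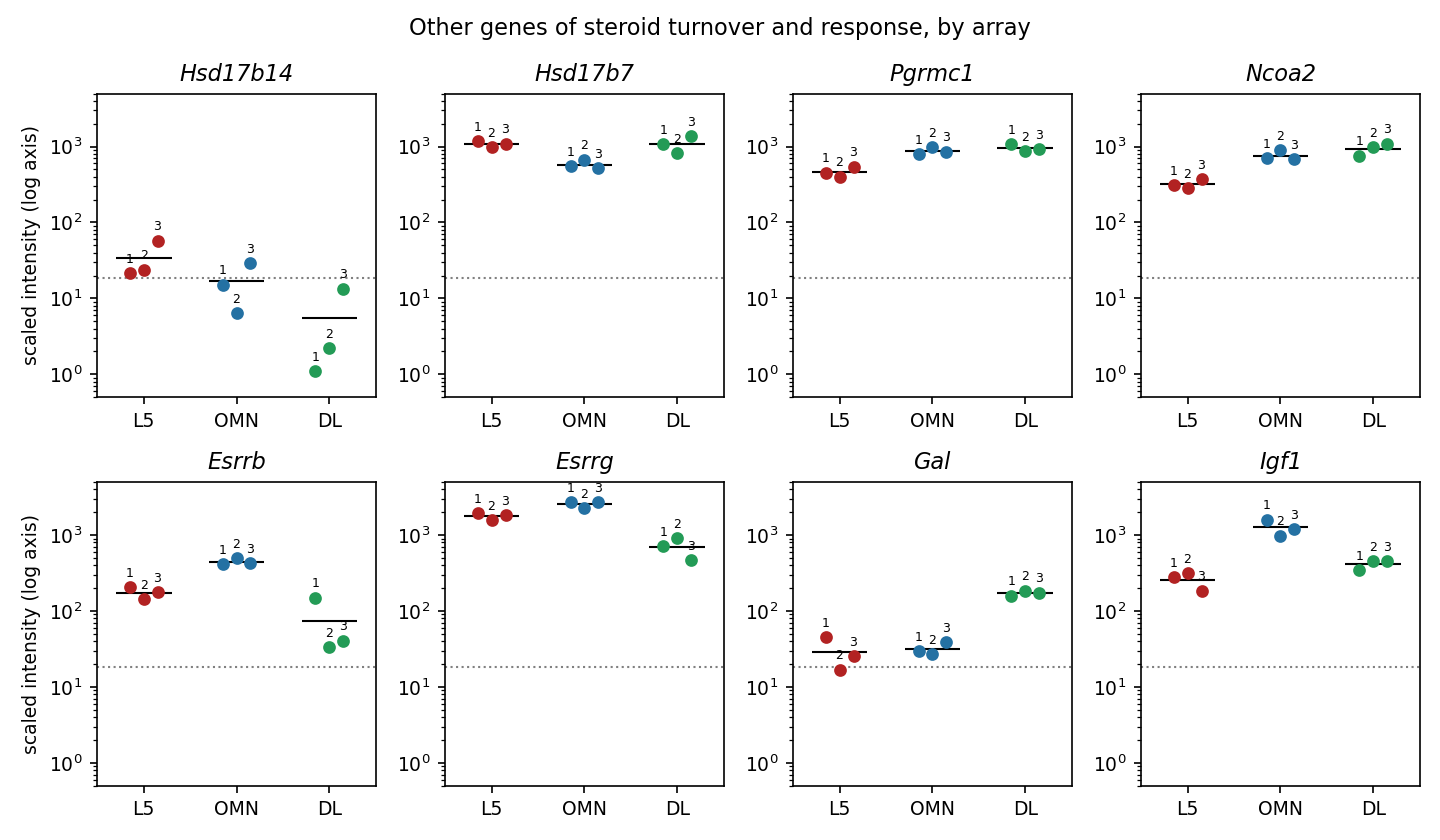
Scaled intensity (log axis) of 8 further genes of steroid turnover and response on each array, with arrays numbered by replicate, pool means as bars and the noise level as a dotted line; Hsd17b7 and Pgrmc1 are shown though not called. Ncoa2 and Pgrmc1 are lowest on the 3 L5 arrays, Esrrg is lowest on the 3 DL arrays, and Gal is highest on the 3 DL arrays. Of all genes, 27.4% (L5 and OMN), 23.4% (L5 and DL) and 21.1% (DL and OMN) had no overlap between the pools.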

How the data were processed

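The authors deposited 1 table of scaled intensity values on a linear scale for 9 arrays, per the labels 3 for each of 3 pools. The mean of each array without 2% of its values at each end was 250.0, and the sources used here do not name the software. Precision is limited by the number of arrays. Of 45101 probe sets, 64 controls were left out; 34945 named 1 gene, 932 several and 9160 none. Of several probe sets of a gene, the one brightest on average in log2(intensity + 16) was used. Limma 3.58.1 in R 4.3.3 was fitted on all 9 arrays with the pool as factor and the replicate number as a block, since the protocol takes all pools from each animal. No label says that equal numbers mark one animal. Adjusted p-values follow Benjamini and Hochberg over 18193 genes, or 45037 probe sets for single probe sets. The scripts were tested on simulated data. Genes named are the members, up to 3 called genes per list and comparison, and the 3 genes most like a called member; exceptions are marked. Members and lists were chosen with earlier results of these data known. The noise level was set after the values had been seen. A bound divides the bright pool's geometric mean by 18.3. Alternatives changed the pseudocount, scaling, filter, probe set rule, variance model, block and arrays used.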

Additional observations from a re-analysis of the deposited data

How the results depend on the processing

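Hsd17b2 was the 1 member called in L5 against OMN and in L5 against DL, and 0 were called with a pseudocount of 1 in both. Against DL, 0 were called when the Gapdh ratio was a covariate or DL arrays 1 and 3 were left out; leaving out one array gave 0 to 1 against OMN and 0 to 2 against DL. With no replicate block Hsd17b2 had limma adjusted p = 0.00686 against OMN and 0.00684 against DL, and the block changed no call of a member but made that of Hsd17b14 (adjusted p = 0.101 without it). Deviations of same-numbered arrays correlated between -0.0735 and 0.0617 over 9 pairs, beside -0.0658 to 0.0558 over 18 other pairs. Not every array correlated best with its own number. With 3 arrays per pool these correlations cannot decide whether equal numbers mark one animal. With no replicate block the genes called in L5 against DL rose from 459 to 805.

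Counts over all genes moved more. For L5 against OMN 392 became 101 with a pseudocount of 1, 609 with 64, 946 with a trend and robust variances, 677 with array weights and 82 to 374 with one array left out. For L5 against DL 459 became 62, 836 and 1147 with the first 3 of these, 737 with a mean intensity over 50, 47 with the 2 pools alone, 90 with the Gapdh covariate, 61 to 254 with one array left out and 0 without DL arrays 1 and 3, which leaves DL with 1 array assumed to vary like the other pools. For DL against OMN 545 became 196 with a pseudocount of 1, 872 with a trend, 119 with the 2 pools alone, 274 with the Gapdh covariate, 192 to 365 with one array left out and 126 without DL arrays 1 and 3. Centring on medians moved the share of higher genes from 49.7% to 39.4% in L5 against DL, from 45.3% to 60.6% in DL against OMN and from 44.1% to 51.7% in L5 against OMN, where a pseudocount of 1 gave 61.4%.

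Signs turned only in differences that were not called. Esr1 in DL minus OMN became 0.12 after quantile normalization, 0.05 with centring, 0.12 without DL arrays 1 and 3, and -0.47 to 0.18 with one array left out. Pgr in DL minus OMN became -0.21 with the Gapdh covariate, -0.19 without DL arrays 1 and 3 and -0.19 to 0.29 with one array left out. Nr3c1 in L5 minus OMN ranged from -0.16 to 0.31 and Esr2 from -0.15 to 0.92 with one array left out. The cause of these changes was not tested.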
